A study of Mus musculus with 28 samples.

Results

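Exon fragments of 34 genes of the Nrf2 antioxidant program were followed through 28 small RNA libraries of mouse sperm. The rule lists the genes by symbol and uses no measured value, but the members were chosen with earlier results of these data known. All 34 were found among the 22642 genes with an exon count. They fall into regulators (3 genes), glutathione synthesis (5), glutathione transferases (9), the thioredoxin system (5), NADPH supply (5), iron and heme handling (4), and detoxification and export (3). Together they held 28245 counts, or 0.244% of all exon counts.

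The study compared sperm small RNA across paternal alcohol exposure and loss of Nrf2. Among wild type (WT) animals there were 4 unexposed control libraries and 4 low-dose, 2 medium-dose and 2 high-dose alcohol libraries. Nrf2-/- animals gave 4 libraries without alcohol and 4 with ethanol, so both groups carry the deletion and no WT library shares their table. The other table had 4 floxed Nrf2 libraries (Nrf2 flox) and 4 in which Albumin-Cre was added to the floxed gene (Nrf2 liver KO), neither given alcohol as far as the labels say. The albumin promoter is active in hepatocytes, so the recombination is aimed at the liver and not at the sperm or the epididymis. Strain, age, amount and length of the alcohol exposure, and whether each library is 1 animal or a pool are not given in the sources used here. P-values therefore measure only the spread between these samples, which may be technical. The count column of the library labelled WT medium dose 1 carries the initial used for the high-dose columns, and the label was followed.

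Nrf2, encoded by Nfe2l2, is a transcription factor that Keap1 holds at a low level by passing it to a Cul3 ubiquitin ligase. When oxidants or electrophiles modify Keap1, Nrf2 builds up, pairs with small Maf proteins and switches on genes that carry an antioxidant response element in their regulatory DNA. Mature sperm transcribe little, and the epididymis epithelium through which they pass secretes antioxidant enzymes and coat proteins such as Crisp1, whose exon level is used here as a gauge of epididymal RNA in a library.

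Promoter windows were available for 28 of the 34 genes from RefSeq (build GRCm38.p6), each covering 250 bases before and 50 after a start site. The core letters of the antioxidant response element, TGACNNNGC, were searched on both strands. They were present in 11 of these 28 genes (39.3%) against 14.0% of 27025 genes with a window. The 11 were G6pdx, Gclm, Gsta3, Gstm5, Me1, Mgst1, Nfe2l2, Pgd, Prdx1, Srxn1 and Txnrd1. A match is a description of the letters and not evidence of a bound site. The 250 bases before the start site are shown for 4 genes because, in the values below, 3 of them moved with Crisp1 across libraries and Gstm5 did not, while 3 of the 4 (not Gstm1) hold the letters. Capitals mark the match. Gclm lies at chr3:122245307-122245556 on the plus strand and Prdx1 at chr4:116685349-116685598 on the plus strand. The Gstm1 window is 1 of its 2, at chr3:108017974-108018223 on the minus strand, and has no match. Gstm5 lies at chr3:107895604-107895853 on the plus strand, close to Gstm1 in the same gene cluster.
Gclm: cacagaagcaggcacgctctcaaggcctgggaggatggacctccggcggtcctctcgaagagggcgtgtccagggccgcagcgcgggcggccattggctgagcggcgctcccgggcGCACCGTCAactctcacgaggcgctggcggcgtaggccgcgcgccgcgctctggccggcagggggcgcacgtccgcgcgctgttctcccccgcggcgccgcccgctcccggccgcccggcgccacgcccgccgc
Prdx1: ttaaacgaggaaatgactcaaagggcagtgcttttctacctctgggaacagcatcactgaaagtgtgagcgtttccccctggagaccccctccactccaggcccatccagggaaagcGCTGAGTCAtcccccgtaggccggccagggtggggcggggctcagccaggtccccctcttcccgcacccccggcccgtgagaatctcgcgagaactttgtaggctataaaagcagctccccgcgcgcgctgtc
Gstm1: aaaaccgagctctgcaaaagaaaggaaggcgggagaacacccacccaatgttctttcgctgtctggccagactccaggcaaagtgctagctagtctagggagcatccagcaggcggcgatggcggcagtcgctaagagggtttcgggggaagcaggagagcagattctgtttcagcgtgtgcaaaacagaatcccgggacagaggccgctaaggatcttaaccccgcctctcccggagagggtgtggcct
Gstm5: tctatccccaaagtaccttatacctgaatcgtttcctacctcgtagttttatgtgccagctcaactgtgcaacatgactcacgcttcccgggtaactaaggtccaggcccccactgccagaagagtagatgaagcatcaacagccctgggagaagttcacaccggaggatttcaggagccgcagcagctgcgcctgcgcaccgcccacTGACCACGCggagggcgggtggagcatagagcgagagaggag
The match began 134 bases before the start site in Gclm, 133 in Prdx1 and 42 in Gstm5.

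Library depth ran from 1993933 to 11119711 counts over 8 feature classes, and exon rows took 2.85% to 11.5% of them. Levels below are exon counts per 1000000 counts of all classes (CPM). Reads of this length can fall on near-identical copies, and how the authors placed them is not given in the sources used here. The values of the Gstm and Gsta genes, of Gstp1 beside Gstp2, and of Fth1, Ftl1, Prdx1 and Txn1, which have processed pseudogenes, are therefore uncertain in how reads were split. In bulk samples, fewer cells of a type and less RNA per cell cannot be told apart. WT control 1 had the lowest exon share, 2.85% against 7.39% to 8.44% in the other WT controls. The Nrf2-/- controls divided into libraries 1 and 2, with 933 and 921 CPM of Crisp1, and libraries 3 and 4, with 29.8 and 10.1 CPM. Means and differences that use these 4 controls average over that division. The labelled cell type was checked against 12 sperm and spermatid transcripts, of which 12 had counts in every group, with summed levels of 196 to 1081 CPM over all libraries. Of the 16 epididymis epithelium markers, 9 to 14 had counts in a group, with Bsph1 at 0 in all groups but WT high dose. The 8 hepatocyte markers, of which 4 to 8 had counts in a group, summed to 0.422 to 9.53 CPM over WT libraries. In libraries of the other tables they summed to 7.94 to 227 CPM.

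Summed over the 34 genes, WT controls held 74.1 to 203 CPM and low-dose libraries 109 to 147 CPM. The medium-dose libraries held 143 and 102 CPM and the high-dose libraries 345 and 131 CPM. Nrf2-/- controls held 468, 457, 150 and 153 CPM, and Nrf2-/- ethanol libraries 96.5 to 176 CPM. Nrf2 flox libraries held 235 to 288 CPM and Nrf2 liver KO libraries 144 to 223 CPM, so within this table the groups did not overlap. In the other comparisons the ranges overlapped, and the sum was highest where Crisp1 was highest, in Nrf2-/- controls 1 and 2 and WT high dose 1.

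**Figure D1:**
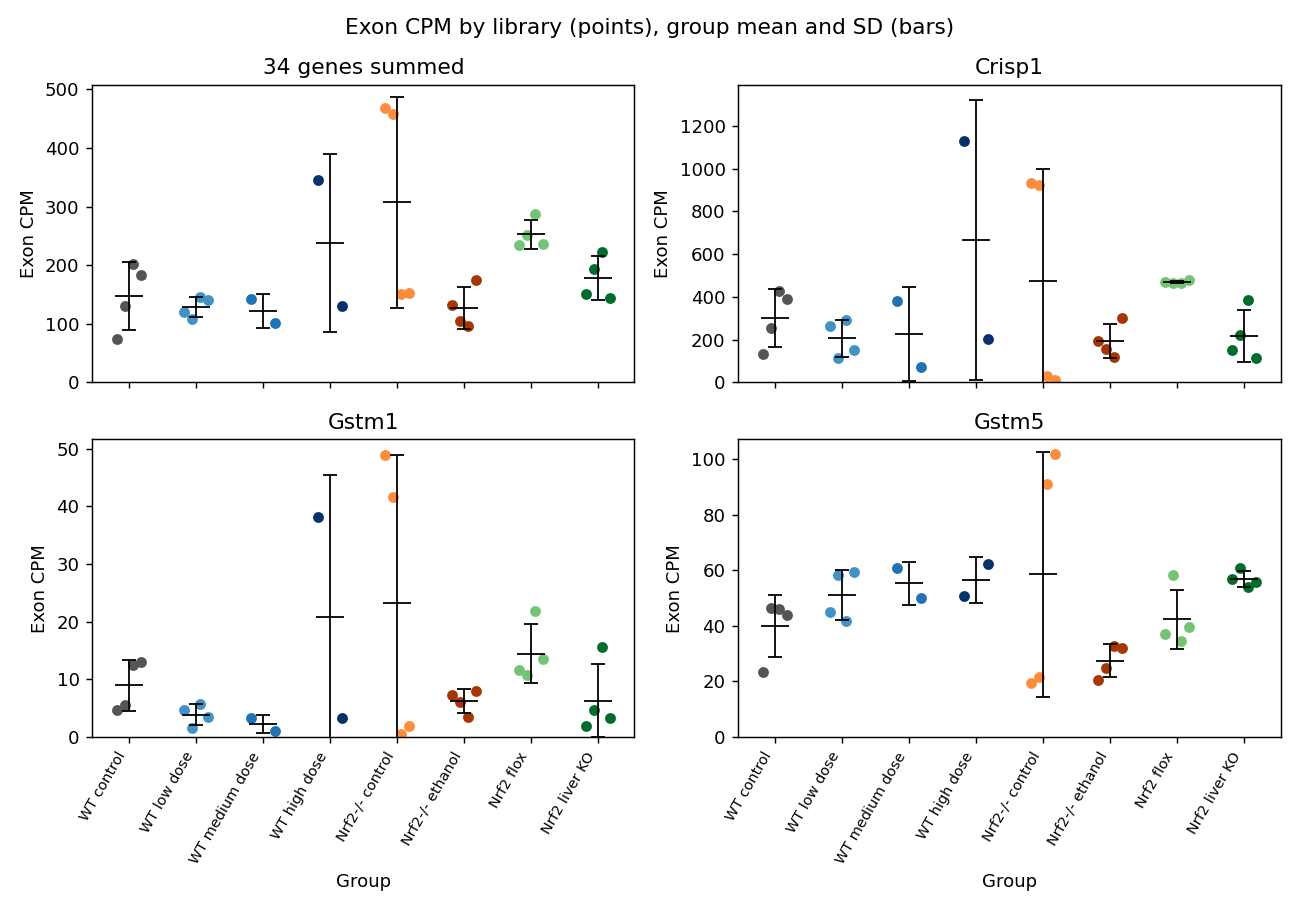
Exon CPM (vertical axes, linear) in each library by group (horizontal axis) for the 34 genes summed, Crisp1, Gstm1 and Gstm5; points are libraries, bars the group mean with 1 SD, cut at 0. Nrf2-/- controls 1 and 2 and WT high dose 1 are high for the sum, Crisp1 and Gstm1, and Nrf2-/- controls 3 and 4 are high for Gstm5, at 91.3 and 102 CPM.

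The most abundant member was Gstm5, a mu-class glutathione transferase found mainly in testis and brain. Its mean over the 28 libraries was 47.5 CPM, and per kilobase of annotated exon it led the 34 genes at 37.2 CPM. It had 23.6, 46.4, 46.1 and 44.1 CPM in WT controls 1 to 4, 45.1, 58.3, 41.7 and 59.6 CPM at low dose, 60.9 and 49.96 CPM at medium dose and 50.8 and 62.4 CPM at high dose. In Nrf2-/- controls 1 to 4 it had 19.5, 21.5, 91.3 and 102 CPM, against 20.5, 24.7, 32.8 and 32.2 CPM with ethanol. In Nrf2 flox it had 37.0, 58.2, 34.6 and 39.7 CPM and in Nrf2 liver KO 56.8, 60.8, 53.9 and 55.7 CPM. Gstm5 was thus lowest in Nrf2-/- control 1, the library where Gstm1 and Gstm2 were highest, and its share of the members' counts ran from 4.17% in Nrf2-/- control 1 to 66.5% in Nrf2-/- control 4.

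Among the other glutathione transferases, enzymes that join glutathione to electrophiles, Gstm2 averaged 10.8 CPM and Gstm1 10.7 CPM. Gstm1 had 4.77, 5.57, 12.5 and 13.0 CPM in WT controls, 4.68, 1.63, 5.81 and 3.50 CPM at low dose, 3.31 and 1.13 CPM at medium dose and 38.3 and 3.23 CPM at high dose. In Nrf2-/- controls it had 48.97, 41.7, 0.510 and 1.86 CPM, and with ethanol 7.33, 6.11, 3.39 and 8.05 CPM. It had 11.7, 10.7, 21.8 and 13.6 CPM in Nrf2 flox and 1.83, 4.60, 15.7 and 3.24 CPM in Nrf2 liver KO. Gstm1 therefore ranged widely inside groups, with the 3 highest libraries being the 3 richest in Crisp1. Gstm2 had 3.60, 4.98, 10.5 and 10.4 CPM in WT controls, 2.47, 1.52, 6.60 and 3.50 at low dose, 3.73 and 1.27 at medium dose and 24.0 and 2.46 at high dose. The Nrf2-/- controls had 58.5, 55.5, 1.02 and 1.71 CPM, with ethanol 6.49, 7.09, 3.18 and 8.62, in Nrf2 flox 14.8, 16.7, 13.7 and 11.6 and in Nrf2 liver KO 4.28, 3.38, 14.5 and 6.01 CPM. Nrf2-/- controls 1 and 2 and WT high dose 1 were the 3 highest libraries for Gstm1 and for Gstm2, while inside Nrf2 flox library 2 was the lowest for Gstm1 and the highest for Gstm2. Gsta3 (2.15 CPM), Gstp1 (1.66), Gstm3 (1.57), Gsta4 (0.974), the membrane-bound Mgst1 (0.850) and Gsta2 (0.394) were scarce, and Gsta2 had a count in 14 of the 28 libraries.

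Iron genes included 2 of the most abundant members. Fth1, the heavy chain of the iron store ferritin, averaged 16.4 CPM, with 5.40, 9.23, 21.1 and 18.7 CPM in WT controls, 11.3, 9.12, 12.7 and 12.4 at low dose, 13.5 and 7.74 at medium dose and 27.6 and 10.1 at high dose. For Fth1, Nrf2-/- controls had 37.6, 33.5, 7.65 and 5.12 CPM, and 13.2, 7.58, 8.26 and 14.0 CPM with ethanol. In Nrf2 flox it had 26.5, 23.4, 31.4 and 32.7 CPM against 9.78, 16.3, 20.3 and 14.1 CPM in Nrf2 liver KO, 2 groups that did not overlap. Ftl1, the light chain, averaged 14.3 CPM and followed the same libraries, from 1.55 CPM in WT medium dose 2 to 48.4 CPM in Nrf2-/- control 2. It had 5.94, 5.71, 15.5 and 12.8 CPM in WT controls, 7.28, 4.45, 11.5 and 7.68 at low dose, 8.14 and 1.55 at medium dose and 29.3 and 5.54 at high dose. For Ftl1, Nrf2-/- controls had 41.7, 48.4, 7.90 and 5.12 CPM, with ethanol 14.7, 9.78, 6.56 and 21.1, in Nrf2 flox 17.9, 20.5, 27.1 and 16.2 and in Nrf2 liver KO 10.4, 19.0, 12.5 and 5.78 CPM, so its flox and liver KO groups overlapped. The heme-degrading enzymes were nearly absent. Hmox1, heme oxygenase 1 and a classical Nrf2 target, averaged 0.330 CPM with a count in 21 libraries, and Blvrb, a biliverdin reductase, averaged 0.279 CPM with a count in 17.

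In the thioredoxin system, which reduces protein disulfides and peroxides, Prdx1, a peroxidase, averaged 7.52 CPM. It had 2.61, 4.10, 10.5 and 7.94 CPM in WT controls, 2.60, 2.93, 4.49 and 3.67 at low dose, 4.14 and 1.13 at medium dose and 21.4 and 3.69 at high dose. In Nrf2-/- controls Prdx1 had 26.4, 27.9, 2.29 and 1.71 CPM and with ethanol 3.77, 3.67, 4.66 and 6.32 CPM. In Nrf2 flox it had 10.5, 10.0, 15.9 and 11.9 CPM and in Nrf2 liver KO 4.89, 1.54, 8.41 and 1.62 CPM, again without overlap. Prdx6, a peroxidase that also acts on phospholipids, averaged 5.66 CPM and ran from 0.563 CPM in WT medium dose 2 to 25.7 CPM in Nrf2-/- control 1, and Txnrd1, the thioredoxin reductase, averaged 5.57 CPM and ran from 0.765 CPM in Nrf2-/- control 3 to 29.8 CPM in Nrf2-/- control 2. By group, Prdx6 had 1.62, 3.96, 3.51 and 4.89 CPM in WT controls, 2.47, 1.74, 4.09 and 3.34 at low dose, 2.48 and 0.563 at medium dose and 11.8 and 3.08 at high dose. In Nrf2-/- controls it had 25.7, 24.0, 2.29 and 0.775 CPM, with ethanol 3.77, 3.91, 1.69 and 7.66, in Nrf2 flox 7.40, 6.68, 10.7 and 6.08 and in Nrf2 liver KO 1.53, 3.38, 6.67 and 2.54 CPM. Its highest libraries were again the 3 richest in Crisp1. Txnrd1 had 1.44, 2.34, 6.02 and 3.97 CPM in WT controls, 3.12, 0.978, 3.17 and 2.50 at low dose, 2.35 and 1.13 at medium dose and 8.84 and 0.922 at high dose. The Nrf2-/- controls had 19.1, 29.8, 0.765 and 1.40 CPM, with ethanol 5.86, 4.40, 3.18 and 7.28, in Nrf2 flox 9.74, 5.01, 9.10 and 8.40 and in Nrf2 liver KO 1.53, 3.38, 5.80 and 4.63 CPM. For Txnrd1 the 2 highest libraries were Nrf2-/- controls 2 and 1, followed by Nrf2 flox 1. Thioredoxin itself, Txn1, averaged 2.98 CPM and sulfiredoxin, Srxn1, 2.67 CPM.

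The NADPH-supplying pathway, which fuels both systems, was less abundant. Tkt, transketolase, ran from 0.155 CPM in Nrf2-/- control 4 to 23.9 CPM in Nrf2-/- control 1. Tkt had 1.44, 1.90, 6.52 and 5.03 CPM in WT controls, 2.21, 0.760, 5.28 and 1.34 at low dose, 3.59 and 1.27 at medium dose and 13.9 and 1.08 at high dose. In Nrf2-/- controls it had 23.9, 21.2, 1.27 and 0.155 CPM, with ethanol 3.14, 2.20, 0.212 and 8.24, in Nrf2 flox 5.06, 7.39, 6.14 and 6.08 and in Nrf2 liver KO 3.05, 5.22, 9.28 and 0.694 CPM. The 3 libraries richest in Crisp1 were the highest for Tkt as well. G6pdx, which opens the pentose phosphate pathway, had 1.08, 2.64, 3.01 and 2.65 CPM in WT controls, 0.780, 0.326, 1.72 and 0.835 at low dose, 2.07 and 0.141 at medium dose and 8.27 and 1.08 at high dose. For G6pdx, Nrf2-/- controls had 13.7, 12.3, 2.04 and 0.775 CPM, with ethanol 2.09, 1.71, 0.423 and 3.83, in Nrf2 flox 3.12, 4.05, 6.83 and 8.40 and in Nrf2 liver KO 0.305, 4.30, 2.32 and 3.93 CPM. For both genes the groups compared within a table overlapped. Me1, malic enzyme, averaged 2.93 CPM, Pgd 2.70 CPM and Taldo1, transaldolase, 2.62 CPM.

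In glutathione synthesis, Gclc and Gclm, the catalytic and modifier subunits of glutamate-cysteine ligase, averaged 3.35 and 3.04 CPM. Slc7a11, the cystine importer, averaged 2.26 CPM, glutathione reductase Gsr 1.72 CPM and glutathione synthetase Gss 0.604 CPM. The Slc7a11 counts came mostly from 1 exon row, which held 81.4% of them in WT libraries, 86.6% in Nrf2-/- libraries and 94.4% in the flox and liver KO libraries. Detoxification genes were scarce: epoxide hydrolase Ephx1 averaged 2.64 CPM, the glutathione-conjugate pump Abcc1 1.22 CPM, and Nqo1, a quinone reductase widely used as a readout of Nrf2, 0.282 CPM with a count in 16 libraries.

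**Figure D2:**
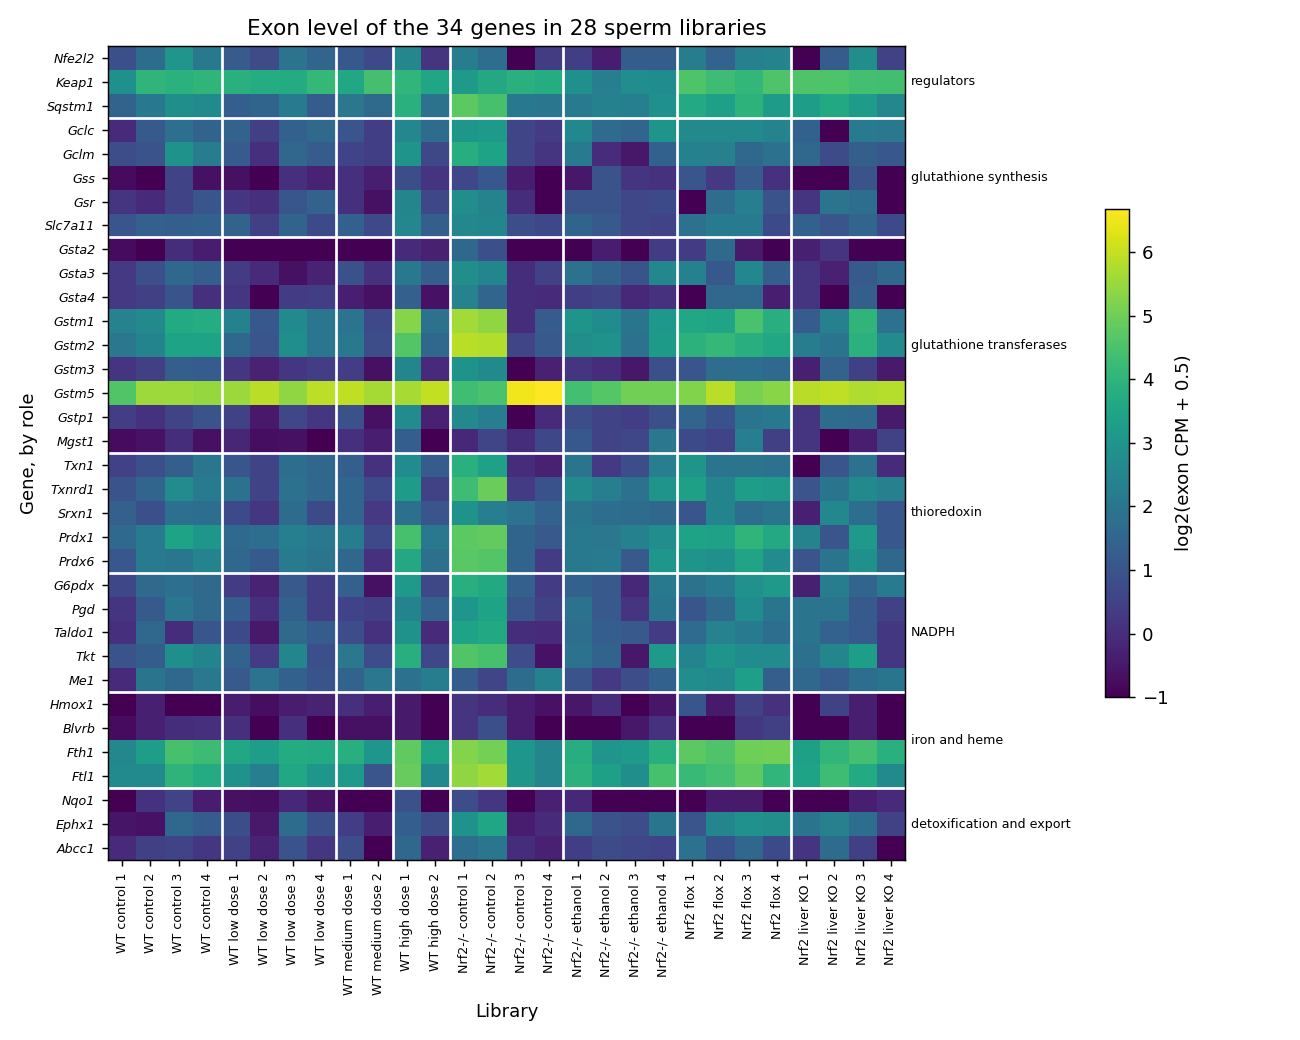
Colour gives log2(exon CPM + 0.5) for the 34 genes (vertical axis, grouped by role) in the 28 libraries (horizontal axis, grouped by label). Nrf2-/- controls 1 and 2 and WT high dose 1 are bright over most rows, while Gstm5 and Keap1 stay bright in nearly all columns.

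Among the regulators, Keap1 was the most abundant at a mean of 14.6 CPM. It had 6.75, 15.7, 14.5 and 15.9 CPM in WT controls, 14.0, 13.1, 12.7 and 16.7 CPM at low dose, 11.7 and 20.7 CPM at medium dose and 16.1 and 10.9 CPM at high dose. In Nrf2-/- controls Keap1 had 8.30, 11.9, 14.0 and 12.9 CPM, and with ethanol 6.70, 4.40, 6.35 and 6.13 CPM, so all 4 ethanol libraries lay below all 4 controls. In Nrf2 flox it had 22.98, 19.3, 16.6 and 23.2 CPM and in Nrf2 liver KO 23.2, 23.3, 20.6 and 20.1 CPM, which overlapped. Sqstm1, the autophagy receptor p62 that binds Keap1, averaged 7.45 CPM, with 2.25, 3.81, 6.52 and 5.82 CPM in WT controls, 1.95, 2.28, 4.09 and 1.84 at low dose, 3.59 and 2.67 at medium dose and 14.1 and 3.23 at high dose. For Sqstm1, Nrf2-/- controls had 26.1, 21.2, 3.82 and 3.57 CPM, with ethanol 3.98, 4.64, 4.45 and 6.71, in Nrf2 flox 12.5, 9.54, 15.0 and 8.98 and in Nrf2 liver KO 9.47, 12.3, 8.99 and 5.32 CPM. Its 2 highest libraries were Nrf2-/- controls 1 and 2, whereas Keap1 was lowest of its group in Nrf2-/- control 1.

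Nfe2l2, the targeted gene, was thin everywhere, with 0 to 47 exon counts in a library and a mean of 2.52 CPM. WT controls had 15, 19, 15 and 29 counts, low-dose libraries 14, 11, 25 and 14, medium-dose libraries 12 and 8, and high-dose libraries 47 and 4. In the Nrf2-/- table the controls had 20, 17, 0 and 5 counts and the ethanol libraries 4, 1, 9 and 10. Nrf2 flox libraries had 11, 9, 20 and 17 counts and Nrf2 liver KO libraries 0, 6, 22 and 4. A count of 0 allows up to 0.765 CPM in Nrf2-/- control 3 and 0.916 CPM in Nrf2 liver KO 1 (3 counts, counting error only). Exon reads of the deleted gene were thus present in 7 of 8 Nrf2-/- libraries. The exons missing from the Nrf2-/- allele are not given in the sources used here. These reads therefore check neither the deletion nor the labels. The row of the last exon of the main transcript held 121 Nfe2l2 counts in WT libraries, 56.8% of all, 42 of 89 (47.2%) in flox and liver KO libraries and 21 of 66 (31.8%) in Nrf2-/- libraries.

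At the low dose, 0 of 28 members tested passed an adjusted p of 0.05 in edgeR's quasi-likelihood test, as against 8 of 17930 features (0.0446%) and 3 of 9022 exon features (0.0333%). DESeq2 called 0 of the 14 members it gave an adjusted p and left it undefined for the other 14. Unadjusted p was under 0.05 for 7 members, against 4.85% of exon features. The log2 value was below 0 for 23 of the 28, against 63.1% of exon features, with a median of -0.56 against -0.13. The remaining 6 members were too scarce for the filter, and a member that passed it only through the group where it was high had to differ, so these counts describe the members tested and support nothing. The lowest p was that of Gsta3, an alpha-class transferase, with 0.420 ± 0.271 CPM at low dose and 1.63 ± 0.779 CPM in controls (SD, n = 4 each), a log2 difference of -1.93 ± 0.50 (SE; adjusted p = 0.190). Gstm1 followed at -1.32 ± 0.49 (adjusted p = 0.452), Sqstm1 at -0.93 ± 0.35 (0.471) and G6pdx at -1.47 ± 0.58 (0.495), each with all 4 low-dose libraries below the control median and with overlapping ranges. Nfe2l2 had -0.79 ± 0.42 (adjusted p = 0.738). With no filter on low counts, Gstm1 (log2 -1.31, adjusted p = 0.00395) and Gstm2 (-1.17, adjusted p = 0.0304) passed the edgeR test, as did 62 of 22281 exon features (0.278%). With log2 Crisp1 CPM as a covariate, edgeR called 0 of 28 members, as against 126 of 17930 features (0.703%) and 12 of 9022 exon features (0.133%). Leaving out single libraries moved the members' median from -0.36 (without low dose 2) to -0.91 (without low dose 3). Epididymis markers summed to 150 to 415 CPM at low dose (13 of 16 with counts; Lcn8, Lcn9 and Bsph1 at 0) and 238 to 631 CPM in controls (13 of 16; Lcn9, Spink13 and Bsph1 at 0), and red blood cell markers to 35.0 to 64.5 CPM against 2.16 to 13.6 CPM, with 8 of 9 markers counted and Ahsp at 0 in both groups. Their part in the members' values was not tested.

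At the medium dose, with 2 libraries, 0 of 28 members were called by edgeR or DESeq2, and edgeR called 0 of 17930 features (0%). Unadjusted p was under 0.05 for 6 members, against 5.86% of exon features. The log2 value was below 0 for 25 of 28, against 65.4% of exon features, with a median of -0.75 against -0.21. Gstm1 had 2.22 ± 1.55 CPM against 8.96 ± 4.39 CPM in controls (SD, n = 2 and n = 4), a log2 difference of -2.02 ± 0.66 (SE; edgeR adjusted p = 0.942). Gclm had -1.74 ± 0.67, Gstm2 -1.55 ± 0.63, Prdx6 -1.25 ± 0.52 and Nfe2l2 -1.29 ± 0.56, at the same adjusted p. Both medium-dose libraries lay below every control for Gclm, Gsta4 and Gstm1, 3 of 28 members against 3.4% of exon features, and above every control for Gstm5, 1 of 28 against 2.92%. Without filter, Gstm1 passed (log2 -1.996, adjusted p = 0.000960), as did 36 of 22281 exon features (0.162%). The 2 libraries differed: the members' median was -1.62 without medium dose 1 and -0.24 without medium dose 2, and Crisp1 was 383 CPM in the first and 71.9 CPM in the second.

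At the high dose, again 0 of 28 members were called by either tool, and edgeR called 0 of 17930 features (0%). Unadjusted p was under 0.05 for 2 members, against 2.99% of exon features. The log2 value was above 0 for 24 of 28 members, with 41.7% of exon features below 0, and the median was 0.57 against 0.10. Gclc had 4.08 ± 1.86 CPM against 1.87 ± 1.08 CPM in controls (SD, n = 2 and n = 4), a log2 difference of 0.99 ± 0.42 (SE; edgeR adjusted p = 0.999). Gsr had 1.31 ± 0.59, Prdx6 0.71 ± 0.42, Gstp1 1.17 ± 0.70 and Nfe2l2 -0.49 ± 0.49. Over the fits with each library left out, Gclc stayed at 0.69 to 1.18 and Gsr at 0.08 to 1.81. The members' median rested on high dose 1, which had 1130 CPM of Crisp1 against 205 CPM in high dose 2. Epididymis markers summed to 1926 CPM in high dose 1 against 309 CPM (14 of 16 with counts in the group, Lcn8 and Lcn9 at 0). Without high dose 1 the members' median was -0.73, and with log2 Crisp1 CPM as a covariate it was -0.20. Gstm5 lay above every control in both libraries, 1 of 28 members against 5.21% of exon features.

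Averaged over the 3 doses, 0 of 28 members and 0 of 17930 features (0%) were called by edgeR, and DESeq2 called 0 members. Unadjusted p was under 0.05 for 1 member, Nfe2l2, against 3.08% of exon features. Nfe2l2 had 2.18 ± 1.54 CPM against 3.87 ± 2.64 CPM in controls (SD, n = 8 and n = 4), a log2 difference of -0.86 ± 0.37 (SE; adjusted p = 1.00), with 7 of 8 alcohol libraries below the control median. Gclm had -0.88 ± 0.43, Gstm1 -0.84 ± 0.42 and Gstm2 -0.75 ± 0.41. The value was below 0 for 22 of 28 members against 63.2% of exon features, with a median of -0.31 against -0.10. Without high dose 1 the median was -0.78. With total counts as library size 16 of 28 were below 0, against 38.7% of exon features, with a median of -0.10 against 0.09.

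In Nrf2-/- mice, ethanol libraries were compared with controls for the 19 members that passed the filter, and edgeR called 0 of them and 0 of 9661 features (0%). DESeq2 called 0 of the 10 members it gave an adjusted p. No member had an unadjusted p under 0.05, against 4.43% of exon features. The log2 value was below 0 for 17 of 19, against 84.5% of exon features, with a median of -0.83 against -0.49. The members' median ran from -0.55 (without control 2) to -1.05 (without control 3). It was -0.37 with exon features alone and -1.30 with total counts as library size. With log2 Crisp1 CPM as a covariate it was -0.36. That fit called 0 of 19 members, as against 148 of 9661 features (1.53%) and 91 of 5420 exon features (1.68%). G6pdx had 2.01 ± 1.41 CPM against 7.20 ± 6.73 CPM in controls (SD, n = 4 each), a log2 difference of -1.37 ± 0.70 (SE; edgeR adjusted p = 0.767). Sqstm1 had -0.95 ± 0.54, Gstm2 -1.61 ± 0.92 and Keap1 -0.77 ± 0.46, at the same adjusted p. Keap1 was the 1 member of 19 whose ethanol libraries all lay below the controls, at 5.90 ± 1.02 against 11.8 ± 2.47 CPM (SD, n = 4 each), where 7.82% of exon features did so. The Keap1 controls ranged from 8.30 to 14.0 CPM, whereas the Gstm2 controls ranged from 1.02 to 58.5 CPM. Nfe2l2 did not pass the filter. Epididymis markers summed to 47.5 to 1567 CPM in the controls (14 of 16 with counts; Spink13 and Bsph1 at 0) and 189 to 438 CPM with ethanol (11 of 16; Lcn8, Lcn9, Spink13, Defb20 and Bsph1 at 0). Sperm and spermatid markers summed to 196 to 1081 CPM in the controls and 242 to 336 CPM with ethanol, with 12 of 12 counted in both groups. Hepatocyte markers, with 8 of 8 counted in both groups, summed to 29.5 to 81.6 CPM in the controls and 38.3 to 227 CPM with ethanol. Their part in the members' values was not tested.

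The response to alcohol was compared between Nrf2-/- and WT mice as the ethanol difference in one minus the mean-of-doses difference in the other. Of the 31 members tested, 0 were called by edgeR or DESeq2, with 0 of 20778 features (0%) called by edgeR, and 0 had an unadjusted p under 0.05, against 4.06% of exon features. The value was below 0 for 25 of 31 against 69.9% of exon features, with a median of -0.59 against -0.34. Gstm5 had the lowest p, at -1.30 ± 0.68 (SE; adjusted p = 0.985), followed by Gsta3 at 1.04 ± 0.66, Keap1 at -0.72 ± 0.46 and Me1 at -0.89 ± 0.73, and Nfe2l2 had 0.71 ± 0.82. The members' median depended on the setting: it was 0.06 with log2 Crisp1 CPM as a covariate, -0.04 with exon features alone, -1.26 with total counts as library size, -0.14 without WT high dose 1 and -0.79 without Nrf2-/- control 3. Genotype and table cannot be told apart, so only this difference of responses was tested. Each response comes from its own table, and the amount of alcohol is not given in the sources used here. The difference therefore cannot tell genotype from other differences between the tables.

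In Nrf2 liver KO against Nrf2 flox, edgeR called 0 of 20 members tested, as against 5 of 9837 features (0.0508%) and 2 of 5320 exon features (0.0376%). DESeq2 called 0 of the 12 members it gave an adjusted p and left it undefined for 8. Unadjusted p was under 0.05 for 7 members, against 15.2% of exon features. The log2 value was below 0 for 18 of 20, against 61.4% of exon features, with a median of -0.62 against -0.18. Prdx1 had 4.11 ± 3.26 CPM against 12.1 ± 2.68 CPM (SD, n = 4 each), a log2 difference of -1.30 ± 0.42 (SE; edgeR adjusted p = 0.207). Gstm5 went the other way, at 56.8 ± 2.90 against 42.4 ± 10.8 CPM and log2 0.73 ± 0.25 (adjusted p = 0.232), with ranges that overlapped through flox 2. Fth1 had 15.1 ± 4.38 against 28.5 ± 4.34 CPM and log2 -0.64 ± 0.26 (adjusted p = 0.307), Gstm1 had -0.997 ± 0.41 (adjusted p = 0.313) and Nfe2l2 -0.59 ± 0.66 (adjusted p = 0.738). All liver KO libraries lay below all flox libraries for Fth1, Gclc and Prdx1, 3 of 20 members against 10.7% of exon features, and all above them for 0 members against 0.301%. The 5 thioredoxin genes and the 5 NADPH genes tested all had values below 0, with medians of -0.89 and -0.56. So did the 2 iron and heme genes tested and the 1 gene each of glutathione synthesis and of detoxification and export. Of the regulators and of the transferases tested, 2 of 3 each were below 0, where 61.4% of exon features were. Without liver KO 3, the KO library richest in Crisp1, Gstm1 (log2 -1.81, adjusted p = 0.0178) and Prdx1 (-1.77, adjusted p = 0.0380) passed the edgeR test, as did 167 of 5872 exon features (2.84%). Without liver KO 4 the members' median was -0.39. Crisp1 was 463 to 477 CPM in flox and 114 to 386 CPM in liver KO, and epididymis markers summed to 633 to 808 CPM (13 of 16 with counts; Spink13, Defb20 and Bsph1 at 0) against 160 to 510 CPM (9 of 16; Adam28, Lcn8, Lcn9, Spink13, Defb20, Rnase9 and Bsph1 at 0). Smooth muscle and fibroblast markers, with 10 of 10 counted in both groups, summed to 167 to 362 CPM in flox and 107 to 176 CPM in liver KO. The part of these markers in the members' values was not tested. With log2 Crisp1 CPM as a covariate the members' median was -0.12, Gstm1 had 0.31 and Nfe2l2 1.13. Crisp1 did not overlap between the groups and barely varied in flox. These covariate values therefore extrapolate and cannot tell Crisp1 from the group.

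**Figure D3:**
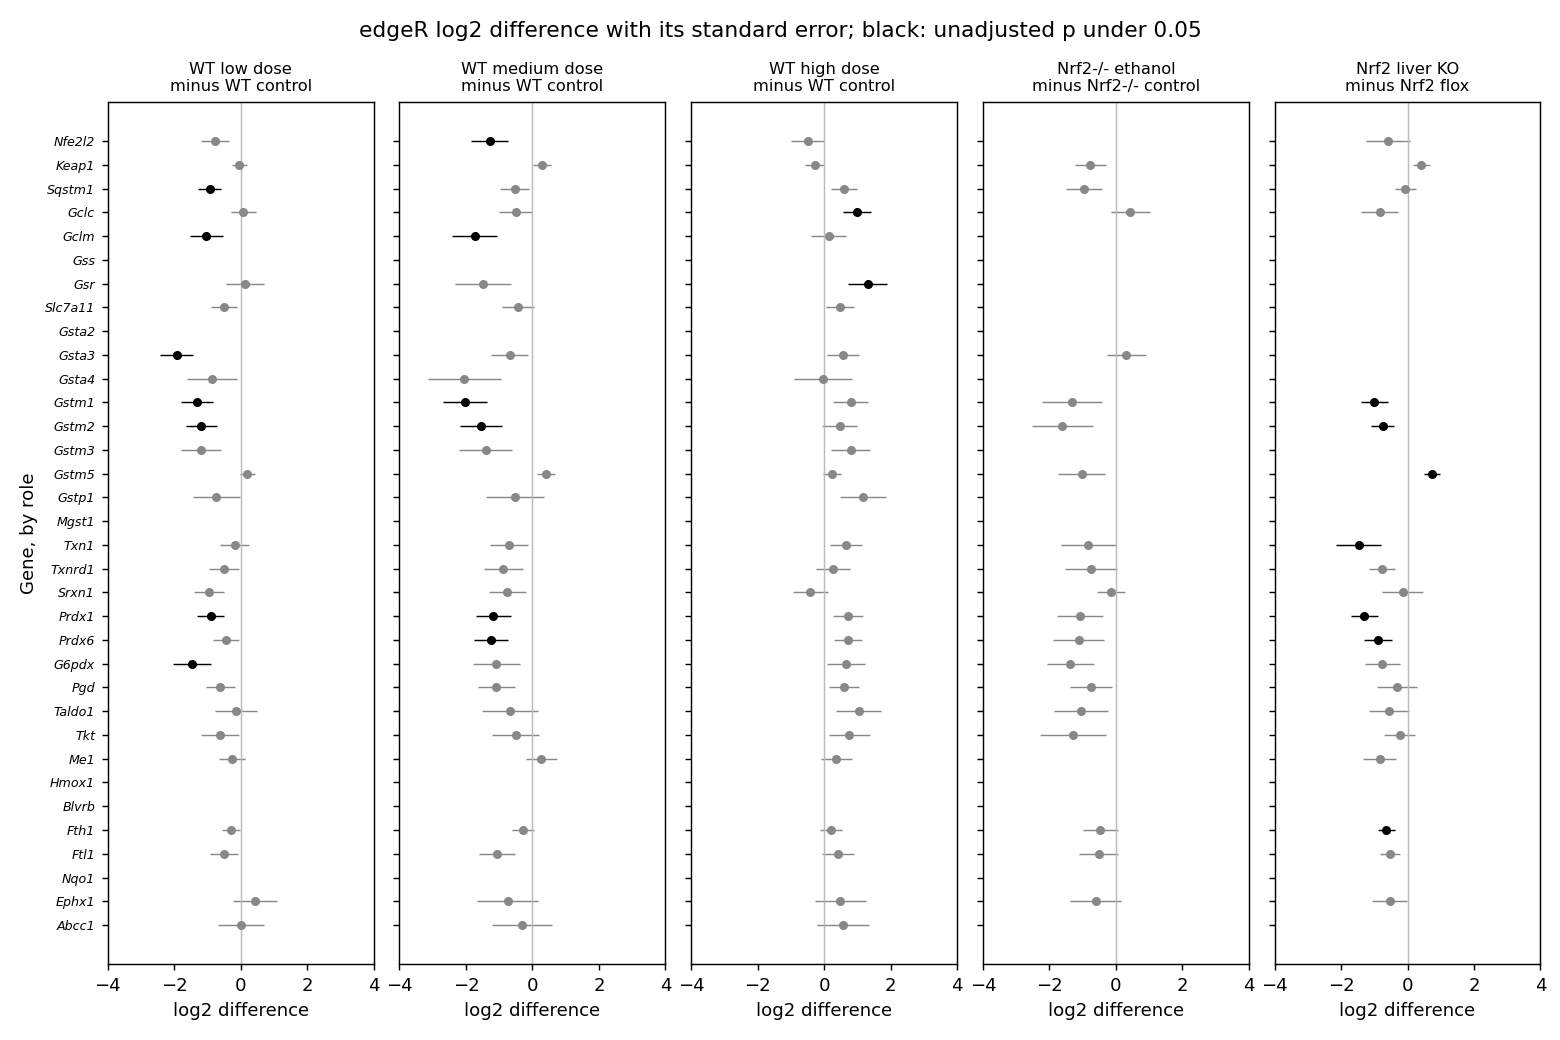
edgeR log2 differences (horizontal axes) with 1 standard error for the members tested (vertical axis, by role) in 5 comparisons; black marks an unadjusted p under 0.05, and no member passed an adjusted p of 0.05. Most points lie left of 0 at the low and medium doses, in Nrf2-/- ethanol and in Nrf2 liver KO, and right of 0 at the high dose.

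Each member was then set against Crisp1 within groups, as deviations of log2(CPM + 0.5) from the group mean over the 28 libraries, for the 27 members with a mean of at least 1 CPM. A positive relation (Benjamini-Hochberg adjusted permutation p under 0.05) was found for 24 of the 27 and a negative one for 0, against 53.6% and 0.599% of 9179 exon genes. The median r was 0.813 for the members and 0.556 for exon genes. All of these values share the library and its total, and the exon share of a library itself moved with Crisp1 (r = 0.694). Total counts did not, with r = -0.101.

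The highest r was that of Prdx6, at 0.953 (Spearman's rho 0.889, adjusted permutation p = 0.000435), which gained 0.68 log2 units per doubling of Crisp1. Gstm2 had 0.925 (rho 0.873, adjusted p = 0.00299), Fth1 0.917 (rho 0.921, adjusted p = 0.000504) and Tkt 0.913 (rho 0.948, adjusted p = 0.000264) by the same permutation test. Tkt gained 0.89 and Gstm2 0.84 log2 units per doubling, and Fth1 gained 0.45. All 5 thioredoxin genes were positive, with a median r of 0.901, as were the 4 glutathione synthesis genes tested (median 0.757), both ferritin genes, and Ephx1 and Abcc1. Of the transferases 5 of 6 tested were positive and of the NADPH genes 4 of 5. Nfe2l2 had r = 0.670 (rho 0.801, adjusted permutation p = 0.0108).

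The 3 exceptions were Gstm5, Keap1 and Me1. Gstm5 had r = -0.716 (rho -0.412, adjusted permutation p = 0.270), Me1 -0.318 (rho -0.301, adjusted permutation p = 0.278) and Keap1 -0.144 (rho -0.0887, adjusted permutation p = 0.635). The next lowest was Srxn1 at 0.532 (rho 0.699, adjusted permutation p = 0.00957). The negative value of Gstm5 rested on the Nrf2-/- controls: r was -0.947 over Nrf2-/- libraries, 0.164 over WT libraries and -0.056 over flox and liver KO libraries, and 0.102 over the 24 libraries without the Nrf2-/- controls. So did those of Me1 and Keap1. Over Nrf2-/- libraries r was -0.717 for Me1 and -0.534 for Keap1, and without the Nrf2-/- controls it was 0.079 and 0.179. Against the summed sperm and spermatid markers Gstm5 had r = 0.962 (rho 0.870, adjusted permutation p = 0.0115), the 1 member called of 27, where 0.524% of exon genes were. Without the Nrf2-/- controls this r was 0.852 over 24 libraries, a check chosen after these values were seen. By table, r was 0.978 over WT libraries (permutation p = 0.00695) and 0.978 over Nrf2-/- libraries (permutation p = 0.0276). Over flox and liver KO libraries r was 0.647 (permutation p = 0.263). The markers themselves moved against Crisp1 (r = -0.712).

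**Figure D4:**
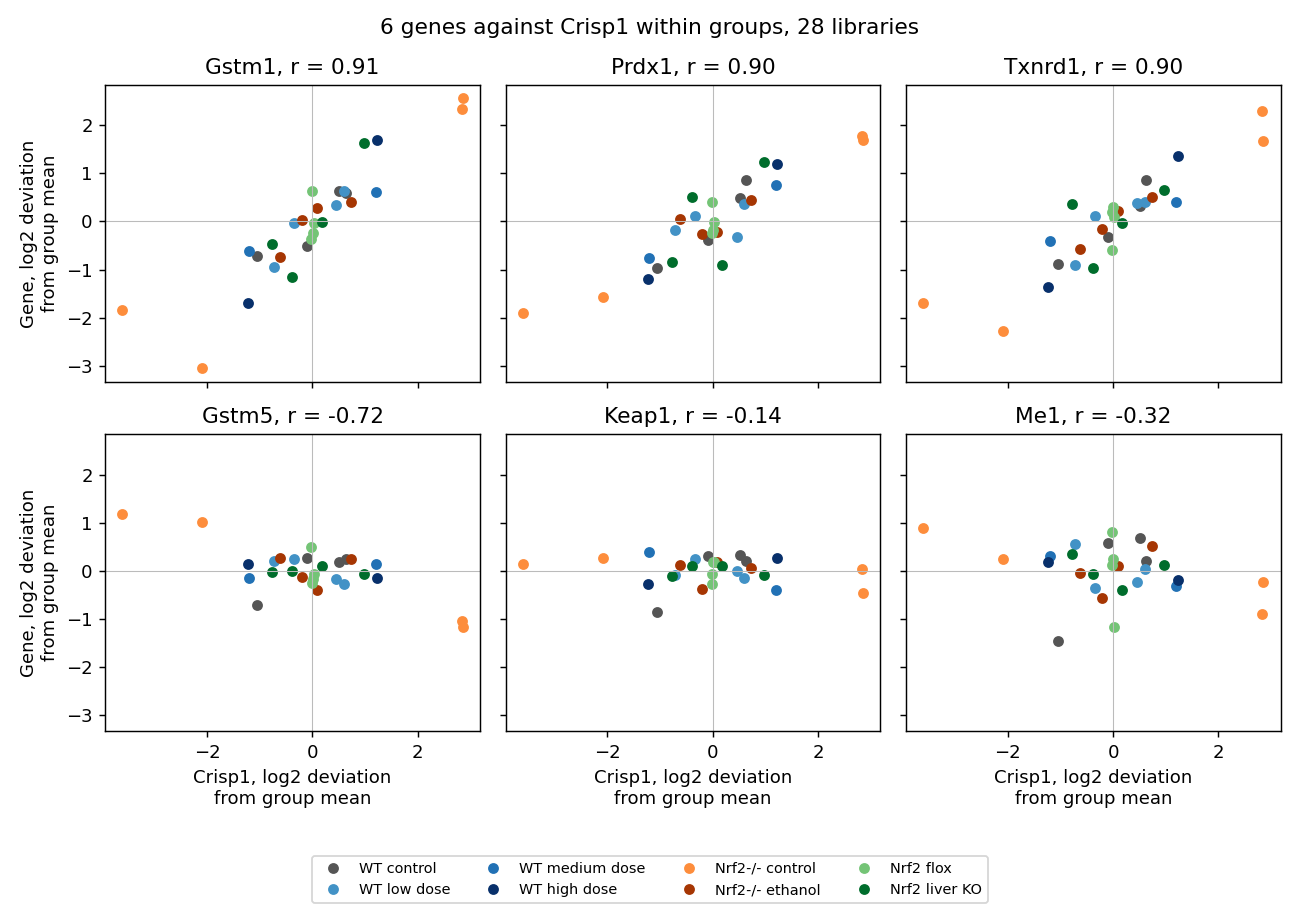
Deviation of 6 genes from their group mean (vertical axes, log2) against that of Crisp1 (horizontal axes, log2) in 28 libraries coloured by group. Gstm1, Prdx1 and Txnrd1 climb with Crisp1, with r of 0.91, 0.90 and 0.90, while Gstm5, Keap1 and Me1 do not, with r of -0.72, -0.14 and -0.32.

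Within single tables, 16 of the 27 members were called over WT libraries (17.5% of exon genes), 4 over Nrf2-/- libraries (7.81%) and 0 over flox and liver KO libraries (0% of exon genes), where the 4 flox libraries held 463 to 477 CPM of Crisp1. The members' median r was 0.853, 0.943 and 0.470 in the same order, against 0.551, 0.803 and 0.314 for exon genes. With 2 groups of 4, only 576 arrangements within groups exist in each of the last tables and no unadjusted p can be much under 0.00174, so fewer calls there do not show a weaker relation. Without the 4 Nrf2-/- controls 18 members were called (32.4% of exon genes). Without the libraries farthest from the median of Crisp1, Nrf2-/- controls 4 and 1, 21 were called (40.0%), Prdx6 had r = 0.917 and Gstm5 had -0.494. Counted per 1000000 exon counts in place of all counts, 17 members were positive and 3 negative. Of the 9179 exon genes, 24.5% were positive and 761 were negative on this scale. The 3 negative members were Gstm5 (r = -0.881), Keap1 (-0.804) and Me1 (-0.696), so the size of their relation depends on the denominator. Of the 11 genes with the response element letters 10 were tested and 8 were positive, and of the 17 genes with a window but no match 13 were tested and 12 were positive, over all libraries, where 53.6% of exon genes were.

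Set per 1000 Crisp1 counts, the 31 members other than Gstm5, Keap1 and Me1, a set chosen after these values were seen, gave 256 to 328 counts in WT controls, 228 to 414 at low dose, 177 and 384 at medium dose and 243 and 260 at high dose. They gave 447 to 534 in Nrf2-/- ethanol, 358 to 489 in Nrf2 flox and 376 to 562 in Nrf2 liver KO. Nrf2-/- controls gave 470, 459, 1419 and 3354, the last from 117 and 65 Crisp1 counts. On this scale the WT groups overlapped, and the flox and liver KO groups did as well. On the same scale Gstm1 gave 36.1, 21.8, 29.5 and 33.2 in WT controls and 52.5, 45.3, 17.1 and 185 in Nrf2-/- controls, the last pair from 2 and 12 Gstm1 counts. These are different tables, and no test was made.

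Of 56 other genes of the pathway, 33 were tested at each WT dose, and 0 were called in any of the 7 comparisons by edgeR. At low dose 23 of 33 were below 0 (63.1% of exon features) with a median of -0.21 and 3 had an unadjusted p under 0.05 (4.85%). In Nrf2 liver KO 14 of 18 were below 0 (61.4%) with a median of -0.64 and 5 had an unadjusted p under 0.05 (15.2%). The most abundant were the glutathione peroxidases Gpx3 (41.0 CPM), secreted, and Gpx4 (15.7 CPM), which protects membrane lipids and forms part of the sperm midpiece, then the ligase scaffold Cul3 (9.22 CPM) and the Nrf2 relative Nfe2l1 (8.71 CPM). In Nrf2 liver KO, Gpx3 had a log2 value of -1.20 (edgeR adjusted p = 0.119), and Gpx4 0.03 (adjusted p = 0.975). Against Crisp1, 27 of 34 tested were positive and 0 negative, against 53.6% and 0.599% of exon genes, with a median r of 0.752. Nfe2l1 had r = 0.921, Gpx3 0.780, Gpx4 0.622 and Cul3 0.489.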

How the data were processed

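Small RNA was measured in sperm of 28 samples in 8 groups, extracted with Trizol and prepared with a Qiaseq small RNA library kit, per the labels' protocols. The authors deposited raw read counts per annotated feature in 3 tables, which hold whole numbers with different totals per library (1993933 to 11119711 counts). The aligner, the counter, the genome build, the use of molecular identifiers and the handling of reads with several positions are not given in the sources used here. The index in an exon row's name was found to run by genome coordinate. Exon lengths came from GENCODE vM21 and were used for levels per kilobase only.

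Exon counts were summed per gene symbol, and CPM are counts per 1000000 counts of all 8 classes. The test was the two-sided quasi-likelihood test of edgeR 4.0.16 (R 4.3.3) with filterByExpr, TMM scaling and Benjamini-Hochberg adjustment over all features other than miRNAs. The 12 WT libraries were fitted together, the other tables alone, and the difference of alcohol responses over both alcohol tables. A call is an adjusted p under 0.05. Alternatives were DESeq2 1.42.0, total counts as library size, no filter, exon features alone, only the groups compared, the replicate number as a block, log2 Crisp1 CPM as a covariate and each library left out. DESeq2 left the adjusted p undefined for 14 of 28 members at low dose, 9 of 19 in Nrf2-/- ethanol and 8 of 20 in liver KO, and its counts of calls cover the others. The relation to Crisp1 used 100000 permutations within groups, two-sided, on log2(CPM + 0.5), adjusted over 9179 exon genes with a mean of at least 1 CPM. The smallest p these permutations give is 1e-05. Python 3.11.15, pandas 2.3.3, numpy 2.4.6 and matplotlib 3.10.9 were used.

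On counts simulated for features that passed the filter, edgeR recovered 44 of 61 features changed 4-fold (72.1%) for the low dose. It recovered 5 of 58 (8.62%) for Nrf2-/- ethanol and 49 of 57 (86%) for Nrf2 liver KO. These fits held 16495, 8944 and 9136 features. For 2-fold changes the shares were 8.06%, 0% and 22.1%. Features were drawn independently, with no shift shared within a library, so the rates cover single features and not the members as a set. The numbers of replicates pair no samples: correlations of same-numbered deviations ran from -0.49 to 0.42. Replicates of a group differed by more than sampling noise in every pair.

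Members and lists were chosen with earlier results of these data known. Values by library are given for the 12 members with the highest mean CPM and for Nfe2l2. Fold changes are given for the 4 members with the lowest p in a comparison and for Nfe2l2. For the relation to Crisp1, the 4 highest and 4 lowest r and Nfe2l2 are given. Of the other pathway genes, the 4 most abundant are named. Genotypes in different tables were not tested against each other.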

Additional observations from a re-analysis of the deposited data

Results flagged for a closer look

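In WT control 1, 2 abundant members stood far below the other WT controls by Dixon's test for a group of 4. Gstm5 had 23.56 CPM there against 44.05 to 46.44 CPM in the other controls, and Keap1 had 6.745 CPM against 14.54 to 15.87 CPM. This library also had the lowest exon share of the WT controls, 2.85%. Chance flags about 1 in 20 groups, and 90 groups of 4 were examined, with these 2 the only ones that passed.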

How the results depend on the processing

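The number of members called was 0 in all 7 comparisons under all alternatives except 3: without a filter on low counts it was 2 at low dose and 1 at medium dose (160 and 54 of 45283 features), and it ran from 0 to 2 over the liver KO fits with each library left out, 2 being without liver KO 3 (208 of 10755 features). Leaving out single libraries gave ranges of the members' median of -0.73 to 1.02 at high dose and -1.62 to -0.24 at medium dose, both by dropping a library of a group of 2, so that the lone library is assumed to vary like the other groups. They were -0.91 to -0.36 at low dose, -0.78 to -0.12 over the doses, -1.05 to -0.55 in Nrf2-/- ethanol, -0.71 to -0.39 in liver KO and -0.79 to -0.14 for the difference of responses. Under the same omissions, the high-dose values ran from -0.27 to 1.15 for Prdx6, -1.79 to 1.90 for Gstp1 and -2.46 to 0.13 for Nfe2l2. Those of Gclc and Gsr kept their sign, at 0.69 to 1.18 and 0.08 to 1.81. With log2 Crisp1 CPM as a covariate, the median was -0.20 at high dose, -0.12 in liver KO and 0.058 for the difference of alcohol responses. In the same fits Gstp1 had -0.25 at high dose, and Gstm1 and Nfe2l2 had 0.31 and 1.13 in liver KO. Crisp1 did not overlap between flox and liver KO, so the liver KO values of that fit extrapolate. With total counts as library size the liver KO median was -0.89 and the median of all features moved from 0.01 to -0.28. That scaling moved the median of all features from 0.00 to 0.18 at low dose, from 0.05 to 0.40 at high dose, from -0.27 to -0.53 in Nrf2-/- ethanol and from -0.13 to -0.65 for the difference of responses. The ratio of mean summed levels, liver KO over flox, was 0.703 in CPM and 0.880 per 1000000 exon counts. Of 27 members, 4 passed the test of the relation to Crisp1 over Nrf2-/- libraries alone (7.81% of exon genes, members' median r 0.943). Over flox and liver KO libraries alone 0 passed (0% of exon genes, members' median r 0.470), where 8 libraries allow few arrangements. With each library left out 21 to 24 members passed, all positive, against 43.1% to 55.5% of exon genes positive. With the replicate number as a block, which pairs no samples here, 0 members were called, and the medians were -0.67, -0.69 and 0.52 at low, medium and high dose, -0.30 over the doses, -0.40 in Nrf2-/- ethanol, -0.70 in liver KO and -0.19 for the difference of responses. The cause of these changes was not tested. Member counts as low as 0 to 10 in a library limit the scarce genes, and the simulated recovery of 2-fold changes limits all of them.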
